A study of Rattus norvegicus with 15 samples.

Results

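The effect of a maternal high-fat diet (HFD) on the embryonic rat cortex was examined at embryonic day E18.5, the latest of 3 stages sampled, by comparing 2 HFD with 2 Control RNA-seq libraries, out of 15 libraries in all. The HFD mothers, Wistar rats, were fed a diet with 60% of calories from fat and became obese before they were mated with males on normal chow, whereas the Control mothers were kept on chow throughout. Per the study's methods each library pooled the frontal cortices of 1 litter, so an n of 2 would stand for 2 litters. Libraries were made from total RNA after removal of ribosomal RNA. The series holds 2 HFD and 3 Control libraries at each of E14.5, E16.5 and E18.5, and the E18.5 libraries compared were HFD 1 and 2 against Control 2 and 3. E18.5 Control 1 was left out because its transcripts resembled those of E14.5 tissue, and the changes seen when it was put back are given at the end.

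By E18.5 the rat cortex has made most of its deep-layer neurons and is still adding upper-layer ones. Radial glia divide in the ventricular zone and give rise to intermediate progenitors, whose daughters migrate outward, differentiate and begin to express synaptic proteins, while astrocyte and oligodendrocyte precursors appear. The tissue is wrapped in meninges, a connective tissue rich in collagen, and is entered by blood vessels and by macrophages. A dissected piece of frontal cortex can therefore differ in its content of meninges, striatum or other neighbouring tissue as well as in the state of its neurons, and in bulk RNA fewer cells of a type and less RNA per cell cannot be told apart.

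Totals were 6984648 and 8710593 counts in HFD 1 and HFD 2, against 7512446 and 8090783 in Control 2 and Control 3. All 4 libraries carried the transcripts of cortical neurons. Neurod6, a transcription factor of excitatory cortical neurons, had 228 and 181 CPM (the gene's counts divided by the scaled library total, the usual unit of level) in HFD, against 195 and 203 CPM in Control. In the library labelled E18.5 Control 1 (6027026 counts) Neurod6 had 5.99 CPM, while Twist1, a mesenchymal transcription factor, had 73.9 CPM, against 1.36 to 2.23 CPM in the 4 libraries compared, and Cryaa, a lens crystallin, had 124 CPM, against at most 0.117 CPM. On the first principal component, which held 59.7% of the variance of the 2000 most variable genes, Control 1 lay at −54.0, among the E14.5 libraries (−71.5 to −26.4) and far from the other E18.5 libraries (45.7 to 53.6).

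HFD 1 also stood apart in structural RNA. Named 5S and 5.8S ribosomal RNA took 0.194% of its counts, against at most 0.00473% in any other library of the series, and a pair of unnamed features took 11.6%, against 0.829% to 6.89% elsewhere. Its scaling factor was 0.848, whereas those of the other libraries in the fit ran from 0.970 to 1.08. Between replicates, on counts scaled by library totals alone, the median chi-square per gene was 3.02 for HFD and 1.89 for Control. The scaling factors were not applied there, and the low factor of HFD 1 may add to its value. Which pair differed more therefore cannot be told from it.

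The libraries differed in their Y-linked transcripts. Kdm5d, a Y-linked histone demethylase, had 21.4 and 69.8 CPM in HFD, against 0 and 3.05 CPM in Control, and Eif2s3y, a Y-linked translation initiation factor, had 16.9 and 49.6 CPM in HFD, against 0 and 2.11 CPM in Control. Control 2 held no count of either gene and Control 3 few, so little or no male tissue was detectable in those libraries at this depth, whereas both HFD libraries held Y-linked transcripts, in unequal amounts. Control 1, left out of the comparison, had 28.5 CPM of Kdm5d and 21.0 CPM of Eif2s3y. Kdm5c, the X-linked counterpart of Kdm5d, had 178 and 143 CPM in HFD, against 194 and 180.2 CPM in Control. Eif2s3, that of Eif2s3y, had 184 and 137 CPM in HFD, against 209 and 248 CPM in Control. Of other X-linked genes, Kdm6a, a demethylase of histone H3 lysine 27, had 52.5 and 48.6 CPM in HFD, against 66.0 and 62.3 CPM in Control. Ddx3x, an RNA helicase, had 375 and 356 CPM in HFD, against 410.0 and 514 CPM in Control. Diet and sex make-up of the litters cannot be told apart at this stage. Low Kdm5d was not particular to Control, since E16.5 HFD 2 had 0.633 CPM and E14.5 HFD 1 had 0 CPM. Whether the libraries with little or no Kdm5d held whole litters, as the methods state, was not tested.

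**Figure D1:**
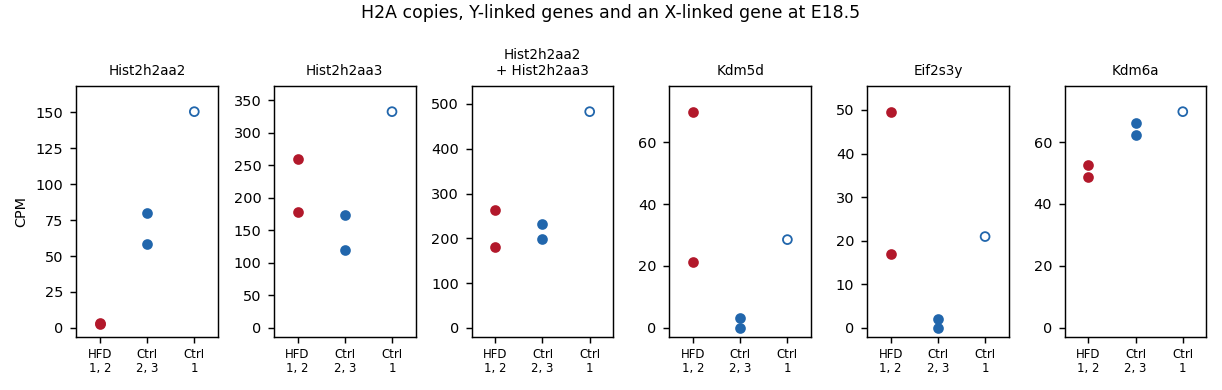
Level of the H2A genes Hist2h2aa2 and Hist2h2aa3, of their sum, of the Y-linked Kdm5d and Eif2s3y and of the X-linked Kdm6a in each E18.5 library, in CPM on linear axes that differ between panels. Filled red points are HFD 1 and 2, filled blue points Control 2 and 3, and the open blue point is Control 1. Hist2h2aa2 is near 0 in HFD (3.71 and 2.49 CPM), but the sum of both copies overlaps between the diets, and the Y-linked genes are near 0 in Control 2 and 3.

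Across all genes, no gene differed between HFD and Control at E18.5 at an adjusted p under 0.05. Of 14709 genes tested with edgeR's quasi-likelihood test, 0 passed (0%), and the smallest adjusted p was 0.137. At an unadjusted p under 0.05, 120 genes were higher (0.816%) and 183 were lower in HFD (1.24%). Both HFD libraries lay above both Control libraries for 2029 genes (13.8%) and below both for 2213 genes (15%). The median log2 fold change was 0.0006, with 190 genes above 1 and 149 below −1. On the same libraries DESeq2 called 2 genes higher and 1 lower, and limma-voom called 0 in either direction, with 116 higher and 173 lower before adjustment. In data simulated with this design the test found 58% of the genes given a change of 1 log2 unit. Of the genes given one of 2 it found 83.8%, so moderate changes of single genes could be missed. The changed genes had at least 1 CPM, and every simulated gene had the spread usual for its level. Genes with a wider spread of their own were not simulated, so these shares may be too high. An exact permutation test of 2 against 2 libraries cannot give a two-sided p below 0.333 for any single gene.

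**Figure D2:**
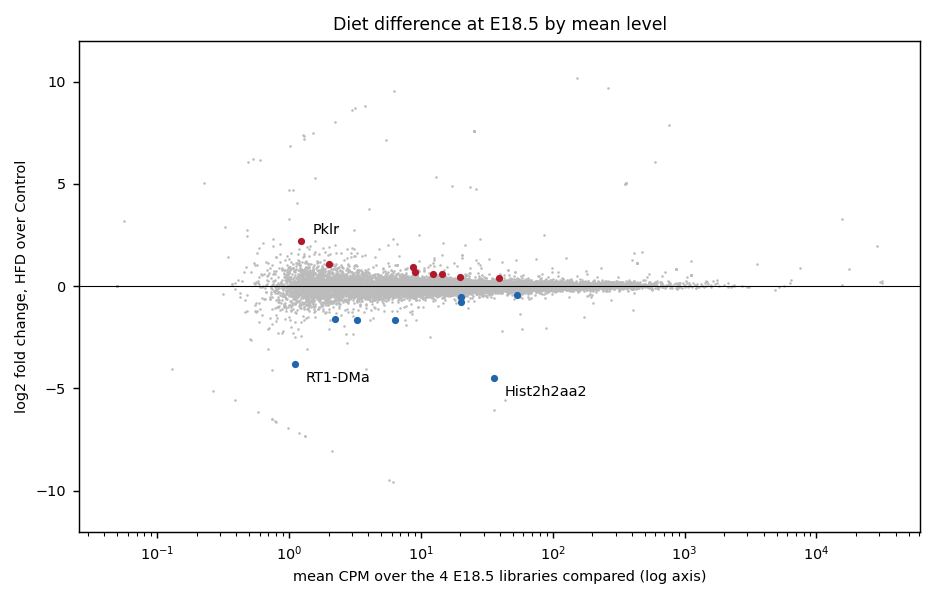
Log2 fold change of HFD over Control at E18.5 (vertical axis) against the mean CPM of the 4 libraries compared (horizontal log axis), 1 grey point per gene tested. Red points are the 8 named genes that were higher in HFD and blue points the 8 that were lower, none of them past an adjusted p of 0.05. Most genes with large fold changes lie at low levels, and Hist2h2aa2 is set apart at −4.51.

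The gene with the smallest p was Hist2h2aa2, 1 of several near-identical genes for the replication-dependent histone H2A, which packages newly made DNA. It had 3.71 and 2.49 CPM in HFD (22 counts in each library), against 58.2 and 79.9 CPM in Control (447 and 681 counts). The log2 fold change was −4.51 (SE 0.43, unadjusted p = 9.28e-06, adjusted p = 0.137 by edgeR), and the groups did not overlap. The gene next in name, Hist2h2aa3, ran the other way, with 260.0 and 178 CPM in HFD, against 173 and 119.6 CPM in Control. Summed over both genes the levels were 264 and 180.5 CPM in HFD, against 231 and 199.5 CPM in Control, which overlapped, and the log2 fold change of the sum was 0.04 (SE 0.26, adjusted p = 1 by edgeR). Hist2h2ac, a more diverged H2A gene of the same cluster, had 35.6 and 26.4 CPM in HFD, against 27.2 and 25.4 CPM in Control, and the H4 gene Hist2h4a had 85.9 and 76.4 CPM in HFD, against 96.7 CPM in each Control library. The 3 genes named after Hist2h2aa2 were chosen for this comparison after their values were seen.

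The promoters of these genes are shown because they tell how alike the copies are around their starts, though not how alike their transcribed parts are. RefSeq (build GRCr8) holds Hist2h2aa2 and a second copy under the name H2ac18, and lists the name Hist2h2aa3 as a synonym of both, so the Hist2h2aa3 of the count table was not matched to a RefSeq entry with certainty. H2ac20 carries the synonym Hist2h2ac. All are on chromosome 2. Each stretch is 120 bases, 5′ to 3′ on the strand of the gene, with capitals marking CCAAT (on either strand, so also ATTGG) and TATAAA. In the shared sequence the annotated start of Hist2h2aa2 lies 29 bases upstream of that of H2ac18, so the last 29 bases shown for Hist2h2aa2 are past its start. The positions are chr2:186490736-186490855 on the minus strand for Hist2h2aa2, chr2:186497151-186497270 on the plus strand for H2ac18 and chr2:186469227-186469346 on the minus strand for H2ac20.
Hist2h2aa2: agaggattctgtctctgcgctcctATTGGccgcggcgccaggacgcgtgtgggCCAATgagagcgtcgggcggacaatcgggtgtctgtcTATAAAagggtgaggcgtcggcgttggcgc
H2ac18: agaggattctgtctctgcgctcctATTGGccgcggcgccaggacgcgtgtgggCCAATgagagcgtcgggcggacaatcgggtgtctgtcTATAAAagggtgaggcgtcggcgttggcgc
H2ac20: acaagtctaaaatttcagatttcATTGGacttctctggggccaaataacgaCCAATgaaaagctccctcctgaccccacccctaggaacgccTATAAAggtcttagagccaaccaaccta
The first pair is identical at all 120 bases shown and over 271 of 271 aligned bases, whereas H2ac18 and H2ac20 share 28 of 120 bases at the same position. Each stretch holds 2 copies of CCAAT and 1 of TATAAA on either strand, motifs that 37.5% and 14.2% of 33469 RefSeq promoters of 300 bases hold at least once. A match of letters does not show that a factor binds there. How the counting assigned reads that could come from either copy is uncertain, and whether the split of counts between Hist2h2aa2 and Hist2h2aa3 followed the transcripts was not tested.

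After Hist2h2aa2, the 7 named genes lower in HFD were led by Ifi27, an interferon-induced gene, with 3.71 and 2.60 CPM in HFD, against 8.59 and 10.7 CPM in Control (log2 fold change −1.63, SE 0.31, unadjusted p = 0.000294 by edgeR). Control 1, which was not in the fit, had 4.10 CPM, close to the HFD libraries. Aldh1a3, an enzyme that makes retinoic acid, had 1.18 and 1.02 CPM in HFD, against 3.25 and 3.52 CPM in Control (log2 fold change −1.62, SE 0.37). Tuba1c, an alpha-tubulin, had 12.3 and 17.4 CPM in HFD, against 24.98 and 26.5 CPM in Control (log2 fold change −0.78, SE 0.18). Fanci, of the Fanconi anaemia pathway of DNA crosslink repair, had 15.7 and 17.4 CPM in HFD, against 23.7 and 23.9 CPM in Control (log2 fold change −0.52, SE 0.13). For Aldh1a3, Tuba1c and Fanci the Control 1 library was higher than any of the 4, at 14.8, 70.7 and 46.8 CPM.

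RT1-DMa, a chain of the complex that loads peptides onto class II histocompatibility molecules, had 0 and 0.226 CPM in HFD, against 2.21 and 2.00 CPM in Control (log2 fold change −3.83, SE 0.92), a difference that rests on few counts. Gnb3, a beta subunit of heterotrimeric G proteins, had 2.36 and 0.904 CPM in HFD, against 4.55 and 5.28 CPM in Control (log2 fold change −1.66, SE 0.40). Sertad4 had 48.6 and 44.4 CPM in HFD, against 60.9 and 62.6 CPM in Control (log2 fold change −0.41, SE 0.12, unadjusted p = 0.0049 by edgeR). It had the smallest fold difference of the 8 named genes lower in HFD.

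The 8 named genes higher in HFD had unadjusted p-values of 0.00422 to 0.0142 by edgeR, all with an adjusted p of 1. RT1-T24-4, a class I histocompatibility gene of a family with many similar members, had 11.3 and 11.5 CPM in HFD, against 6.77 and 5.16 CPM in Control (log2 fold change 0.94, SE 0.26). Pklr, the pyruvate kinase of liver and red cells, had 2.53 and 1.58 CPM in HFD, against 0.390 and 0.469 CPM in Control (log2 fold change 2.19, SE 0.69). Slc37a2, a sugar-phosphate exchanger, had 2.36 and 3.05 CPM in HFD, against 1.43 and 1.17 CPM in Control (log2 fold change 1.06, SE 0.36). Pklr and Slc37a2 were near the low end of detection, and the Control 1 library had 2.99 and 1.73 CPM.

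The others included 3 genes of neuronal surfaces. Grm2, a presynaptic metabotropic glutamate receptor, had 14.3 and 15.3 CPM in HFD, against 10.2 and 9.74 CPM in Control (log2 fold change 0.58, SE 0.18). Unc5a, a netrin receptor of growing axons, had 46.6 and 43.4 CPM in HFD, against 34.9 and 33.0 CPM in Control (log2 fold change 0.41, SE 0.13). Slitrk2, a synaptic adhesion protein, had 23.6 and 22.3 CPM in HFD, against 16.1 and 17.0 CPM in Control (log2 fold change 0.47, SE 0.16). Vwa5b1 had 11.1 and 11.3 CPM in HFD, against 7.55 and 6.22 CPM in Control (log2 fold change 0.71, SE 0.24), and Tlcd3a had 17.0 and 17.9 CPM in HFD, against 10.9 and 12.6 CPM in Control (log2 fold change 0.57, SE 0.18). The choice of these genes, by p and without overlap between the diets, favoured a small spread within each diet. None survived adjustment over all genes.

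**Figure D3:**
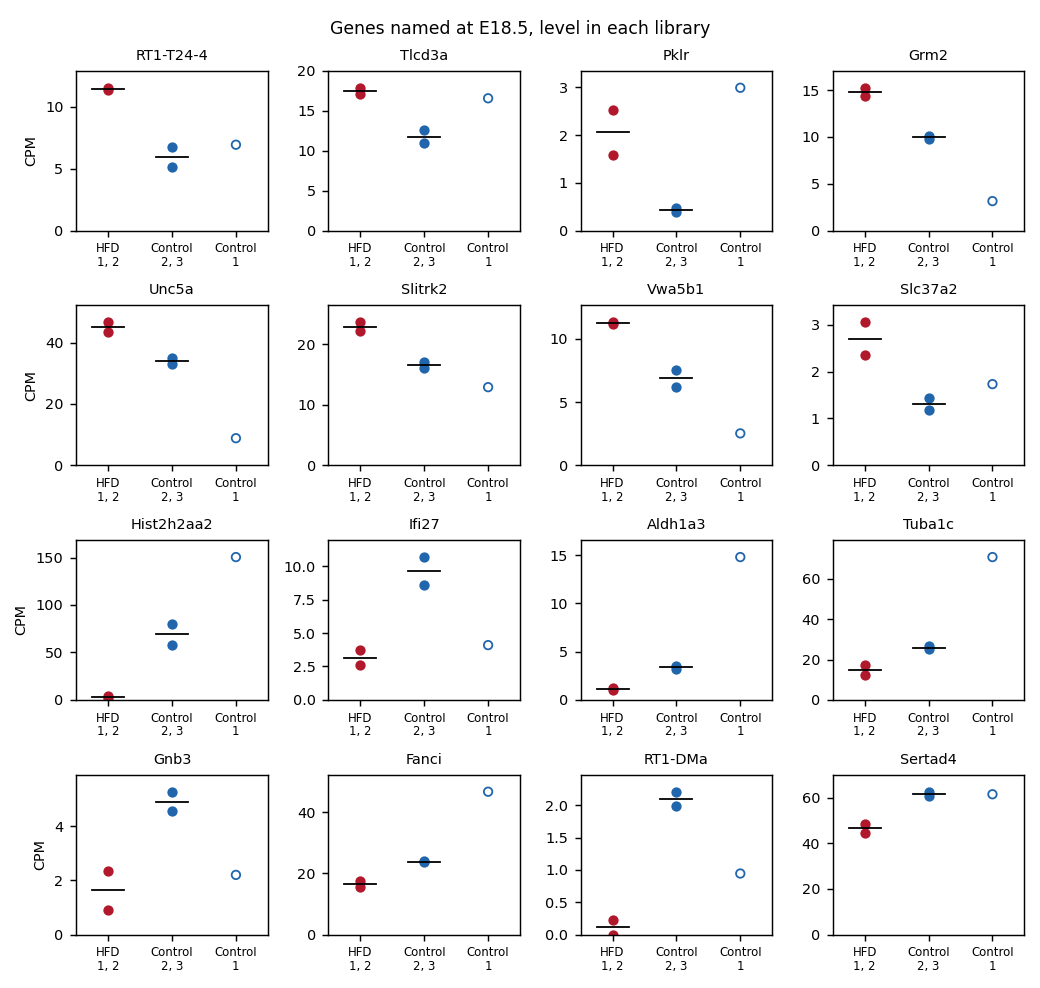
Level of the 16 named genes in each E18.5 library, in CPM on linear axes from 0 that differ between panels. Filled red points are HFD 1 and 2, filled blue points Control 2 and 3, black bars their means (n = 2 each), and the open blue point is Control 1, which was not in the fit. The HFD and Control points do not overlap in any panel, which the choice of these genes required.

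Genes were also grouped into 56 lists of cell types and pathways, whose medians are descriptions and depended on single libraries. Leaving out 1 of the 4 libraries at a time turned the sign of the median for 30 of the 56 lists, and each of the 56 medians moved by over 1.5 times or turned in at least 1 of these fits. Values from these fits are given beside many of the lists below, and a median near 0 carries no direction. Counts without overlap are to be read beside the shares of all genes, 13.8% above and 15% below.

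Of the genes of connective tissue around the brain, most had lower values in HFD. Of 22 genes of head mesenchyme and meninges tested, 18 were lower and 4 higher, none past the threshold, with a median log2 fold change of −0.40, against 0.0006 for all genes. Both HFD libraries lay below both Control libraries for 8 of them. At an unadjusted p under 0.05, 5 were lower, against 1.24% of all genes. The list summed to 647 and 794 CPM in HFD, against 1407 and 989 CPM in Control. Col1a1, the main chain of type I collagen, had 213 and 279.8 CPM in HFD, against 721 and 399 CPM in Control (log2 fold change −1.18, SE 0.41, unadjusted p = 0.0258 by edgeR). Col3a1, a fibrillar collagen, had 201 and 224 CPM in HFD, against 409.6 and 264 CPM in Control (log2 fold change −0.66, SE 0.26). Aldh1a2, the retinoic acid enzyme of the meninges, had 8.27 and 8.82 CPM in HFD, against 13.01 and 11.6 CPM in Control (log2 fold change −0.52, SE 0.20), and Dcn, a collagen-binding proteoglycan, had 10.97 and 9.04 CPM in HFD, against 13.1 and 17.5 CPM in Control (log2 fold change −0.62, SE 0.26). Control 2 had the most collagen and HFD 1 the least. Leaving out 1 library gave list medians from −0.52 (without HFD 2) to −0.23 (without Control 3), and −0.26 without HFD 1.

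Surface epithelium had a larger median difference on a smaller base, which depended on which of its low genes were tested. Of 9 tested genes 8 were lower in HFD, 4 without overlap, and the median log2 fold change was −1.13. Krt15, a basal keratin, had 0.844 and 1.24 CPM in HFD, against 3.77 and 4.58 CPM in Control (log2 fold change −1.95, SE 0.62), and Cdh1, the epithelial cadherin, had 1.35 and 2.15 CPM in HFD, against 5.08 and 3.52 CPM in Control (log2 fold change −1.25, SE 0.43). Krt14, another basal keratin, had 0.338 and 0.226 CPM in HFD, against 4.94 and 0 CPM in Control, so its difference came from Control 2. The median was −0.26 without Control 2, −0.37 without a filter on low counts or with the E14.5 libraries in the fit (9 of 13 lower in each), and −0.55 by limma-voom or with only the 4 libraries. Of muscle, Myh3, an embryonic myosin, had 1.18 and 1.13 CPM in HFD, against 4.55 and 1.17 CPM in Control, again highest in Control 2. The part of adhering tissue in the results was not tested.

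Vessel and immune cell lists had smaller negative medians. Of 14 endothelial genes 11 were lower, 5 without overlap (median −0.14), and of 15 genes of microglia and macrophages 10 were lower, also 5 without overlap (median −0.20). Mrc1, the mannose receptor of macrophages at the brain's borders, had 11.5 and 9.61 CPM in HFD, against 17.3 and 20.2 CPM in Control (log2 fold change −0.84, SE 0.27, unadjusted p = 0.0102 by edgeR). Without Control 3 the endothelial median was −0.03 with 8 of 14 lower (−0.26 with 14 of 14 lower without Control 2), and that of microglia and macrophages −0.11 with 8 of 15 lower. Cx3cr1, a receptor of microglia proper, ran the other way with 3.21 and 2.03 CPM in HFD, against 1.95 and 1.76 CPM in Control (log2 fold change 0.47, SE 0.42). Cdh5, the cadherin of endothelial junctions, had 30.05 and 29.95 CPM in HFD, against 32.7 and 44.4 CPM in Control (log2 fold change −0.36, SE 0.19). Of 12 pericyte and smooth muscle genes 7 were lower (median −0.10, but −0.02 without Control 2), and Tagln, an actin-binding protein of smooth muscle, had 3.71 and 2.71 CPM in HFD, against 4.94 and 4.93 CPM in Control (log2 fold change −0.64, SE 0.28). Of 22 interferon and inflammation genes 15 were lower (median −0.09, with a range of −0.16 to 0.05 when 1 library was left out), with Ifitm2, an interferon-induced membrane protein, at 4.73 and 4.18 CPM in HFD, against 5.86 and 9.27 CPM in Control (log2 fold change −0.77, SE 0.27).

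Lists of synapses and excitability had small positive medians. Of 26 genes of synaptic vesicles and active zones 23 were higher, 7 without overlap (median 0.11), and of 32 voltage-gated and potassium channel genes 29 were higher, 10 without overlap (median 0.11). Of 36 glutamate and GABA receptor genes 25 were higher, 11 without overlap (median 0.08), and of 22 genes of postsynaptic scaffold and adhesion 19 were higher, 1 without overlap (median 0.06). Syn1, the vesicle phosphoprotein synapsin I, had 135 and 133 CPM in HFD, against 109 and 97.9 CPM in Control (log2 fold change 0.38, SE 0.15, unadjusted p = 0.0335 by edgeR). Cacna1b, the pore of N-type calcium channels, had 198 and 186 CPM in HFD, against 180 and 144 CPM in Control (log2 fold change 0.24, SE 0.13). Scn1a, a sodium channel, had 64.8 and 72.1 CPM in HFD, against 56.5 and 59.4 CPM in Control (log2 fold change 0.24, SE 0.15). Not every presynaptic gene was higher, and Snap25, a SNARE protein, had 61.6 and 64.6 CPM in HFD, against 65.5 and 60.6 CPM in Control. All 4 lists depended on Control 3. Without it the synaptic vesicle median was 0.04 with 14 of 26 higher, the channel median 0.01 with 19 higher, the receptor median 0.03 and the postsynaptic median 0.01. Without HFD 2 the receptor median was 0.01, and without HFD 1 the postsynaptic median was 0.01.

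Genes of neuronal identity in the cortex overlapped between the diets for the most part. Of 11 deep-layer genes 7 were higher, 1 without overlap (median 0.07), and of 14 upper-layer genes 9, with 3 (median 0.06). Of 12 genes of excitatory neurons 8 were higher, with 2 (median 0.11). These shares without overlap were 9.09%, 21.4% and 16.7%, against 13.8% of all genes. Without HFD 1 all 3 medians were below 0, at −0.04, −0.05 and −0.06. Fezf2, which specifies subcerebral projection neurons, had 92.5 and 58.8 CPM in HFD, against 67.7 and 53.9 CPM in Control (log2 fold change 0.31, SE 0.31). Slc17a7, the vesicular glutamate transporter VGLUT1, had 61.6 and 46.3 CPM in HFD, against 31.9 and 49.4 CPM in Control (log2 fold change 0.40, SE 0.30). Lhx2, a regulator of cortical fate, had 109 and 95.7 CPM in HFD, against 87.6 and 90.5 CPM in Control (log2 fold change 0.20, SE 0.13).

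Lists of the ventral telencephalon had negative medians. Of 13 striatal and ganglionic eminence genes 12 were lower, 3 without overlap (median −0.27), and of 17 GABA interneuron genes 13 were lower, 4 without overlap (median −0.08). Rarb, a retinoic acid receptor of the striatum, had 14.01 CPM in each HFD library, against 16.7 and 22.2 CPM in Control (log2 fold change −0.47, SE 0.19). Isl1, a transcription factor of striatal projection neurons, had 22.5 and 29.0 CPM in HFD, against 38.8 and 37.0 CPM in Control (log2 fold change −0.55, SE 0.34), and Gad2, a GABA-synthesising enzyme, had 120.4 and 129 CPM in HFD, against 134 and 163 CPM in Control (log2 fold change −0.25, SE 0.15). The striatal median was −0.08 without Control 2, and that of interneurons ran from −0.19 without HFD 1 to −0.03 without HFD 2. By contrast, 12 of 13 genes of the diencephalon, the region behind the cortex, were higher, 4 without overlap (median 0.30). That median was 0.13 with 8 higher without HFD 2, 0.52 with 10 higher without Control 3 and 0.51 without HFD 1. Lhx9, a thalamic and pallial transcription factor, had 23.97 and 33.5 CPM in HFD, against 13.5 and 23.6 CPM in Control (log2 fold change 0.63, SE 0.43), so that HFD 1 lay just above Control 3. The boundary of the dissection was not measured, and its part in these differences was not tested.

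Cell cycle genes had a small negative median. Of 27 tested, 23 were lower, 11 without overlap, with a median of −0.17. Rrm2, a ribonucleotide reductase subunit, had 15.5 and 16.3 CPM in HFD, against 21.9 and 20.0 CPM in Control (log2 fold change −0.39, SE 0.18, unadjusted p = 0.0496 by edgeR), and Top2a, the topoisomerase of dividing cells, had 184 and 190.3 CPM in HFD, against 211 and 227 CPM in Control (log2 fold change −0.23, SE 0.11). Without Control 3 the median was −0.03 and 14 of the genes were lower, and without Control 2 it was −0.27 and 27 were lower. Of 17 radial glial genes 14 were higher, 5 without overlap (median 0.07, 0.03 to 0.08 when 1 library was left out). Fabp7, a fatty acid binding protein of radial glia, had 151.4 and 149.6 CPM in HFD, against 137 and 105 CPM in Control (log2 fold change 0.32, SE 0.18). Of 11 intermediate progenitor genes 6 were higher, 1 without overlap (median 0.03, −0.12 to 0.11 when 1 library was left out), and Eomes, their defining transcription factor, had 50.1 and 40.0 CPM in HFD, against 37.3 and 33.4 CPM in Control (log2 fold change 0.34, SE 0.22).

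Glial genes differed in both directions. Of 14 astrocyte genes 9 were lower and 5 higher (median −0.07), and of 12 oligodendrocyte lineage genes 8 were higher and 4 lower (median 0.04). Without Control 3 these medians were −0.003 and −0.08, and without HFD 2 that of astrocytes was −0.13 and that of the oligodendrocyte lineage 0.004. The connexins Gja1 and Gjb6 were lower. Gja1 had 64.0 and 84.2 CPM in HFD, against 96.2 and 101 CPM in Control (log2 fold change −0.41, SE 0.16), and Gjb6 had 3.88 and 2.15 CPM in HFD, against 7.68 and 5.16 CPM in Control (log2 fold change −1.12, SE 0.41). Fgfr3, a growth factor receptor of early astrocytes and radial glia, was higher with 51.1 and 50.2 CPM in HFD, against 38.4 and 44.8 CPM in Control (log2 fold change 0.28, SE 0.13). Sox8, a transcription factor of glial precursors, had 17.0 and 18.54 CPM in HFD, against 22.6 and 27.7 CPM in Control (log2 fold change −0.50, SE 0.17), and Pdgfra, the receptor of oligodendrocyte precursors that meningeal cells also express, had 45.6 and 49.3 CPM in HFD, against 68.7 and 64.0 CPM in Control (log2 fold change −0.48, SE 0.20).

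**Figure D4:**
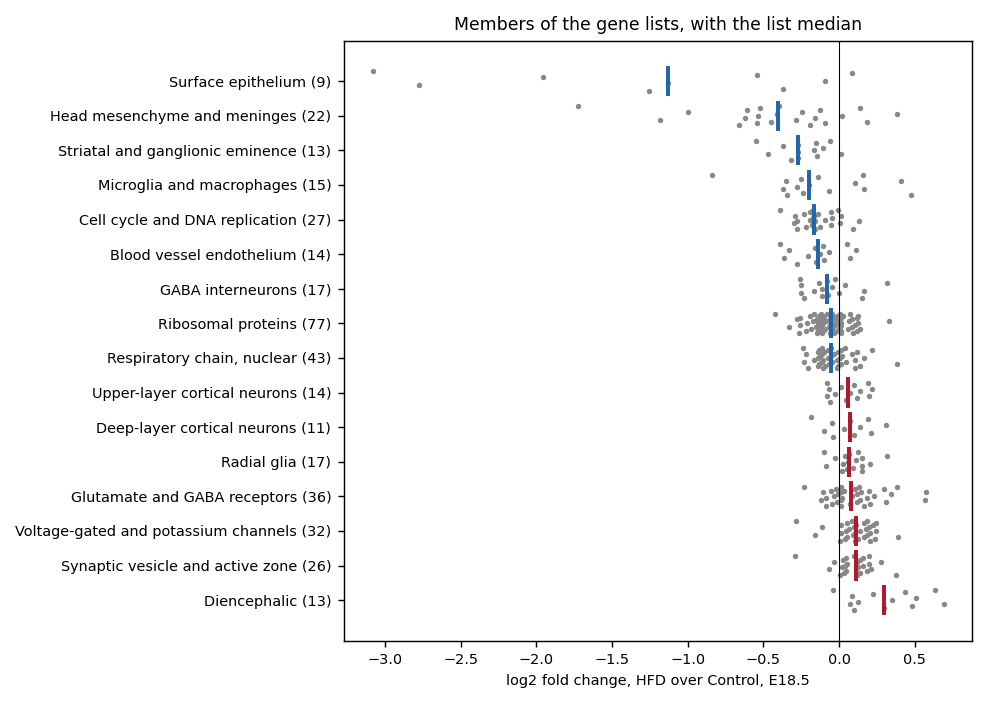
Log2 fold change of HFD over Control at E18.5 for the members of 16 gene lists, 1 grey point per gene tested with the number tested in parentheses, and the list median as a vertical bar (blue below 0, red above 0). Medians run from −1.13 in surface epithelium to 0.30 in diencephalic genes, and most lists have points on both sides of 0. Each median moved by over 1.5 times or turned with some library left out.

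Nuclear genes of protein synthesis and mitochondria had medians just below 0. Of 77 ribosomal protein entries 54 were lower and 23 higher, 24 and 2 of them without overlap (median −0.05, −0.09 without HFD 1). Rps3a, of the small subunit, had 168 and 156 CPM in HFD, against 205 and 229 CPM in Control (log2 fold change −0.42, SE 0.14, unadjusted p = 0.0117 by edgeR), and Rpl7a, of the large subunit, had 85.9 and 85.6 CPM in HFD, against 105 and 100.5 CPM in Control (log2 fold change −0.26, SE 0.12). Ribosomal protein genes have many processed pseudogenes, so their counts are uncertain. Of 43 nuclear genes of the respiratory chain 29 were lower, 10 without overlap (median −0.06), and of 13 mitochondrially encoded genes 10 were higher, 3 without overlap (median 0.15). Without Control 3 these 2 medians were 0.02 and 0.006. Uqcrfs1, the iron-sulfur protein of complex III, had 51.3 and 55.0 CPM in HFD, against 58.9 and 66.3 CPM in Control (log2 fold change −0.24, SE 0.13).

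Lipid and sugar metabolism, the pathways closest to the diet, showed medians near 0. Of 32 genes of fatty acid uptake and oxidation 20 were lower and 12 higher (median −0.03). Hadh and Acadm, enzymes of beta-oxidation, were lower. Hadh had 5.74 and 8.93 CPM in HFD, against 9.499 and 12.6 CPM in Control (log2 fold change −0.57, SE 0.25), and Acadm had 5.74 and 6.44 CPM in HFD, against 7.68 and 9.39 CPM in Control (log2 fold change −0.48, SE 0.22). Cpt1b, a carnitine palmitoyltransferase, was higher with 17.4 and 18.6 CPM in HFD, against 14.2 and 13.7 CPM in Control (log2 fold change 0.37, SE 0.17). Of 21 genes of fatty acid synthesis 14 were lower and 7 higher (median −0.05), of 24 genes of cholesterol synthesis 16 and 8 (median −0.03), and of 22 glycolytic genes 12 and 10 (median −0.02). Each of these 4 medians turned sign when 1 library was left out, staying between −0.12 and 0.06.

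Signalling lists were also centred near 0. Of 36 Wnt genes 26 were higher and 10 lower, 7 and 2 without overlap (median 0.08, 0.03 without HFD 2). Of 25 Notch genes 14 were higher, with 5 and 1 without overlap above and below (median 0.03), and of 23 FGF and Hedgehog genes 14 were higher, with 4 and 3 (median 0.05). Of 29 genes of IGF, insulin, AKT and FoxO signalling 16 were higher and 13 lower, 7 each without overlap (median 0.01). Of 34 TGF-beta and BMP genes 24 were lower and 10 higher, 5 and 3 without overlap, a share below of 14.7% against 15% of all genes (median −0.04). The Notch, FGF and Hedgehog, IGF, and TGF-beta and BMP medians turned sign when 1 library was left out. Gli2, a transcription factor of the Hedgehog pathway, had 40.9 and 36.8 CPM in HFD, against 31.2 and 29.0 CPM in Control (log2 fold change 0.37, SE 0.18), and Igfbp5, an IGF-binding protein, had 182 and 180.4 CPM in HFD, against 141 and 146 CPM in Control (log2 fold change 0.34, SE 0.15). Tgfbr2, the type II receptor for TGF-beta, had 10.6 and 12.4 CPM in HFD, against 18.6 and 13.4 CPM in Control (log2 fold change −0.46, SE 0.21). Of 19 genes of AMPK, O-GlcNAc and mTOR signalling 12 were higher (median 0.02), and of 22 Polycomb and H3K27 demethylase genes 13 were lower (median −0.04), including the X-linked Kdm6a (log2 fold change −0.34, SE 0.16).

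A list of 18 genes, most of them for proteins that the study followed on blots and sections, showed a median of −0.03. Of these, 8 were higher and 10 lower, and their unadjusted p-values ran from 0.306 to 0.912 by edgeR. Pax6, of radial glia, had 35.4 and 28.1 CPM in HFD, against 28.5 and 33.1 CPM in Control (log2 fold change 0.04, SE 0.19). Tbr1, of deep-layer neurons, had 148 and 109.7 CPM in HFD, against 126 and 109 CPM in Control (log2 fold change 0.14, SE 0.28), and Tubb3, neuronal beta-tubulin, had 1622 and 1518 CPM in HFD, against 1460.4 and 1743 CPM in Control (log2 fold change −0.03, SE 0.12). Mki67, a marker of cycling cells, had 268 and 249 CPM in HFD, against 278 and 287 CPM in Control (log2 fold change −0.13, SE 0.13), and Pcna, the sliding clamp of replication, had 66.3 and 62.7 CPM in HFD, against 57.4 and 80.4 CPM in Control (log2 fold change −0.10, SE 0.18).

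Ezh2, the Polycomb methyltransferase, had 85.1 and 100.4 CPM in HFD, against 87.1 and 92.0 CPM in Control (log2 fold change 0.05, SE 0.12), and its partner Suz12 had 31.9 and 35.8 CPM in HFD, against 37.1 and 38.03 CPM in Control (log2 fold change −0.15, SE 0.16). Ogt, which adds O-GlcNAc to proteins, had 305 and 326 CPM in HFD, against 279.9 and 361 CPM in Control (log2 fold change −0.02, SE 0.15). The study reported no blot or section of the Suz12 or Ogt protein itself. Gfap, of astrocytes, had 2.87 and 2.37 CPM in HFD, against 3.25 and 3.64 CPM in Control (log2 fold change −0.40, SE 0.38). Akt1, Akt2, Prkaa1, Prkaa2, Parp1, Olig2, Mbp and S100b had log2 fold changes between −0.15 for Akt2 and 0.05 for Akt1 and Olig2. Standard errors ran from 0.11 to 0.46 over the 18 genes, so changes of that size, and larger ones, could be missed here.

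The 15 tested genes that the study named in its text or primer lists, some of them for E14.5 samples of this series, had a median of −0.13 at E18.5 (−0.08 without HFD 2 and −0.20 without Control 2), with 10 lower, 5 of them without overlap, and 5 higher, none without overlap. Pdgfra had the smallest p, and Ccn3, a matricellular protein, had 2.53 and 2.83 CPM in HFD, against 4.94 and 5.16 CPM in Control (log2 fold change −0.91, SE 0.49). Dlx5, a homeobox gene of the ventral forebrain, had 28.5 and 28.9 CPM in HFD, against 33.3 and 35.3 CPM in Control (log2 fold change −0.26, SE 0.17). A further 11 lay between −0.29 for Twist1 and 0.24 for Tgfb2.

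The diet difference at E18.5 was then set against that at E16.5 in the same fit, and no gene passed the test of the difference. The smallest adjusted p was 0.622 by edgeR, and 219 genes (1.49%) had an unadjusted p under 0.05, 108 above 0 and 111 below, while DESeq2 called 0 above and 1 below and limma-voom none. Hist2h2aa2 led, because its level at E16.5 was alike in HFD (188 and 216 CPM) and Control (196, 186 and 347 CPM), giving a difference of log2 fold changes of −4.24. Ifi27 had 3.96 and 5.44 CPM in HFD, against 3.68, 5.59 and 3.82 CPM in Control at E16.5, giving a difference of −1.73. Aasdh had 37.8 and 40.6 CPM in HFD, against 29.9 and 29.6 CPM in Control at E18.5, but 26.96 and 27.98 CPM in HFD, against 43.3, 39.2 and 29.5 CPM in Control at E16.5, a difference of 0.83. Fcgr2a, an immunoglobulin receptor of macrophages, had a log2 fold change of 0.91 at E18.5 and −0.84 at E16.5. Vwa5b1 had 0.71 and −0.51. In contrast, Dtx1, a regulator of Notch signalling, had −0.13 at E18.5 and 0.48 at E16.5, and Mpv17, a mitochondrial membrane protein, had −0.51 and 1.11.

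List medians at E18.5 and E16.5, which share no library, are set side by side. Head mesenchyme and meninges had medians of −0.40 at E18.5 and −0.71 at E16.5, where all 22 tested genes were lower, synaptic vesicle genes 0.11 and 0.15, channels 0.11 and 0.16, and diencephalic genes 0.30 and 0.49. Cell cycle genes had −0.17 and −0.11. Striatal genes had −0.27 at E18.5 and 0.03 at E16.5, and surface epithelium −1.13 and −0.16. Red blood cell genes had 0.12 at E18.5, where 8 of 14 were higher, and −0.80 at E16.5, where all 14 were lower. Their E18.5 median ran from −0.32 without Control 2 to 0.85 without Control 3.

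Set against E14.5 in a fit of 14 libraries, 0 of 15354 genes passed the test of the difference, with a smallest adjusted p of 0.259 by edgeR. At an unadjusted p under 0.05, 405 genes had a difference above 0 and 462 below, and DESeq2 called 5 above and 3 below. Rfx4, a transcription factor of dorsal neural progenitors, had 11.8 and 9.83 CPM in HFD, against 7.42 and 8.22 CPM in Control at E18.5, but 11.996 and 8.15 CPM in HFD, against 23.6, 26.4 and 24.4 CPM in Control at E14.5, a difference of log2 fold changes of 1.75. Sertad4 ran the other way, with a log2 fold change of −0.41 at E18.5 and 0.63 at E14.5. Penk, a precursor of opioid peptides, had −0.42 and 0.90, and Anxa1, an annexin, −1.12 and 0.84. The list median of head mesenchyme and meninges was −0.40 at E18.5 and 0.61 at E14.5, and that of synaptic vesicle genes 0.11 and −0.53. Tests of a difference over lists were not made.

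Putting E18.5 Control 1 back into its labelled group moved the differences of many genes. In the fit of 10 libraries 0 genes passed the threshold in either direction by edgeR, whereas with the E14.5 libraries added, Control 1 brought 1 lower call (Hist2h2aa2, adjusted p = 0.0359 by edgeR). In 10 libraries the spread between libraries widened to 25.6%, against 16.4% without it (as a coefficient of variation). The genes with an unadjusted p under 0.05 became 105 higher and 363 lower, so that 77.6% were lower, against 60.4% without Control 1. Of 14696 genes tested in both fits, 3704 changed the sign of the log2 fold change and 351 moved by over 1 log2 unit, 258 of them to below −1. At an unadjusted p under 0.05, 209 genes stood in both fits with the same sign, out of 303 without and 455 with Control 1.

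The lists moved as follows. The median of head mesenchyme and meninges went to −1.505 and that of surface epithelium to −2.70, and cartilage and bone, at 0.06 without Control 1, went to −1.74. Cell cycle genes went to −0.60, with 27 of 27 lower, and ribosomal protein genes to −0.20, with 75 of 77 lower. Synaptic vesicle genes moved to 0.44, channels to 0.40, and glutamate and GABA receptors to 0.47, with 36 of 36 higher. Lists turned round too, since diencephalic genes moved to −0.41, Wnt to −0.35, intermediate progenitors to −0.25 and GABA interneurons to 0.25. The genes of the study's text and primers went to −1.05, with 14 of 15 lower. Col1a1 had 2688 CPM in Control 1, against 399 to 721 CPM in Control 2 and 3, and without that library the medians were those given in the earlier paragraphs.

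**Figure D5:**
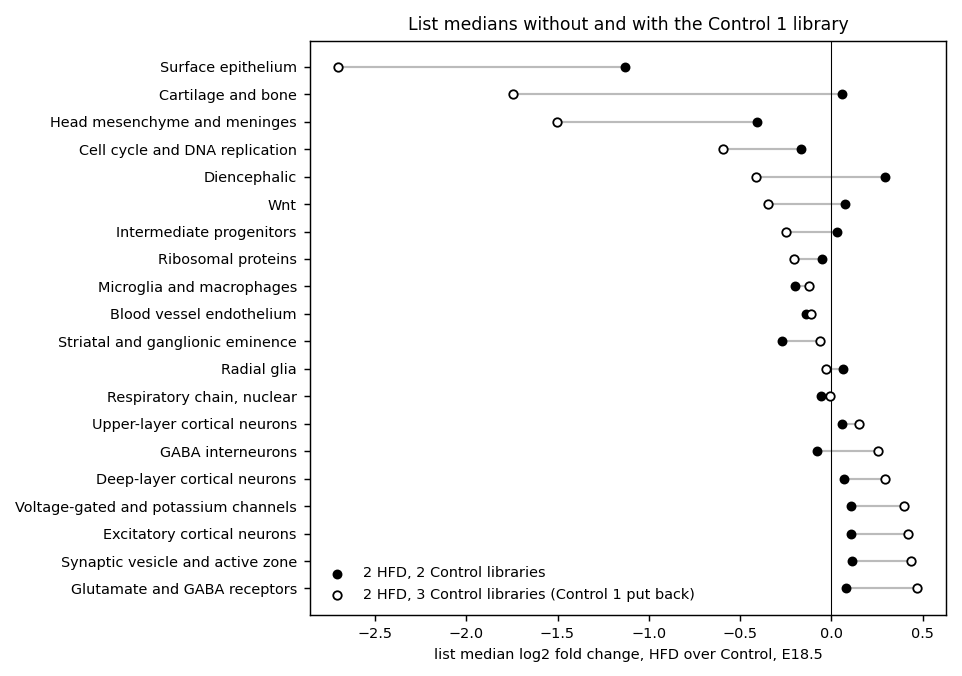
Median log2 fold change of HFD over Control at E18.5 for 20 gene lists, with filled points for 2 HFD against 2 Control libraries and open points for 2 HFD against 3 Control libraries, Control 1 included. Surface epithelium moves to −2.70 and glutamate and GABA receptors to 0.47, and the grey lines show that several lists cross 0.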

How the data were processed

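Frontal cortex RNA of rat embryos was sequenced after ribosomal RNA depletion (Illumina). The values deposited by the authors are estimated counts, that is expected counts in whole numbers without normalisation, for 32623 genes in 15 libraries, of which 9839 had no count. Per the study's methods reads were aligned with Bowtie2 to rn6 and counted with RSEM, whereas the submitters' processing notes name HTSeq, so how reads shared between copies were assigned is uncertain. The named annotation is a human release, while the gene identifiers are those of rat, and for strand the sources used here give no setting.

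HFD 1 and 2 were compared with Control 2 and 3 with edgeR 4.0.16 in R 4.3.3, by its robust quasi-likelihood test, after TMM scaling, filterByExpr and Benjamini-Hochberg adjustment at a threshold of 0.05. The 5 E16.5 libraries entered with means of their own to estimate the spread. CPM values are scaled to the TMM-adjusted total. Standard errors are the absolute log2 fold change over the square root of F. Libraries of 5598195 to 9529978 counts limit genes near 1 CPM. Per the study's methods each library stands for 1 litter, and p-values measure the spread between these libraries.

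Named genes were the first 8 per direction by p with a gene symbol, a mean of at least 1 CPM and no overlap between diets, up to 4 members of each of 56 lists by p, all genes of the 2 lists taken from the study, and, for stage differences, the first 5 each way. Some genes that show tissue or sex, and Snap25, were named after their values were seen. The comparison, the lists and the rule were chosen with earlier results of these data known. The test was tested on simulated data (14504 genes, with 5 false calls). Alternatives were other libraries in the fit, RLE and upper-quartile factors, library sizes without structural RNA, DESeq2 1.42.0, limma-voom 3.58.1, other filters, a replicate block and leaving out each library. Promoters came from RefSeq (GRCr8). A few genes that the rule selects are not reported here.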

Additional observations from a re-analysis of the deposited data

How the results depend on the processing

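No gene passed the adjusted p of 0.05 in the main comparison. Under alternatives, calls stayed few. The counts of genes higher and lower were 0 and 1 with all 15 libraries, 2 and 1 with only the 4 libraries compared, 1 and 2 by DESeq2 on the 5 E18.5 libraries with Control 1 put back, 2 and 1 by DESeq2 on the 9 libraries, and 0 and 1 with at least 10 counts in every library. DESeq2 on the 4 libraries compared, added after seeing the data, called 15 and 2, among them small structural RNAs. Leaving out each library in turn gave 0 to 14 genes higher and 0 to 1 lower, and the 14 came without HFD 2, when HFD 1 with its excess of ribosomal RNA stood alone and was assumed to vary like the other groups.

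Hist2h2aa2 was among the lower genes in each of these fits but those that left out a library, where the 1 lower call was an unnamed feature, without Control 2. DESeq2 called Mfap4 beside it with Control 1 put back, and an unnamed feature on the 4 libraries. Hist2h2aa2 had an adjusted p of 0.0359 in the 15-library fit, 0.000155 with only the 4 libraries, 0.0446 with the stricter filter and 1.32e-19 by DESeq2, but summing it with Hist2h2aa3 (an alternative added after seeing the data) gave an adjusted p of 1. The replicate block, in which the number pairs libraries across diets, gave 0 higher and 3 lower, namely Hist2h2aa2 (adjusted p = 0.000408), Col1a1 (log2 fold change −1.45, adjusted p = 0.00108) and Col3a1 (log2 fold change −0.95, adjusted p = 0.0432). The deviations of same-numbered libraries correlated by −0.13 at E18.5 and by 0.19 and 0.08 at E16.5. With Control 1 left out HFD 1 had no partner, so these few values cannot show whether the numbers were a pairing. For the difference from E16.5, DESeq2 called 0 and 1, the block 0 and 2, and leaving out each library 0 to 1 lower. For the difference from E14.5, DESeq2 called 5 and 3.

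With Control 1 put back in 10 libraries, 46 of 260 named genes turned direction. Fgfr3 and Rfx4, at an unadjusted p under 0.05 without it, turned to −0.16 and −0.20 in 10 libraries, −0.15 and −0.19 in 15 libraries, −0.17 and −0.21 in the 5 E18.5 libraries and −0.17 and −0.21 by DESeq2 on those 5. Of genes at a larger p, Igfbp5 turned to −1.14, Gli2 to −0.33, Tgfb2 to −0.50 and Gad2 to 0.10. The cause was not tested. The block turned 38 and leaving out 1 library 9 to 30 of the 260. Of the other named-gene values under an alternative, 4600 kept their direction and side of the threshold, 279 turned sign from an unadjusted p of 0.05 or more, and 9 passed the threshold. Of 1062 list medians, 823 stayed and 239 moved. Scaling alternatives moved the median of all genes by less than 0.01. Having 2 libraries per diet limits every comparison. Among the 4 libraries compared, sex make-up was unequal between the diet groups. Of transcripts of adhering tissue, Col1a1 was lower in both HFD libraries, whereas Krt14 and Myh3 were high in Control 2 alone. The part of sex make-up and of adhering tissue was not tested.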

Other observations

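Some genes of protein folding had unlike diet differences at E18.5 and E16.5, none past the threshold. Of 26 genes of the heat shock and unfolded protein response, 5 had an unadjusted p under 0.05 for the E18.5 difference minus the E16.5 difference, against 1.49% of all genes. That count was the largest of the 56 lists. The list median was 0.02 at E18.5 and −0.19 at E16.5. When 1 library was left out, the E18.5 median turned sign, with a range of −0.04 to 0.05. The mean log2 CPM of the list was 5.65 in Control 2 and 5.15 in Control 3, against 5.44 and 5.58 in HFD. Hspa5, the chaperone of the endoplasmic reticulum, had 229 and 258 CPM in HFD, against 260.4 and 217 CPM in Control at E18.5, a log2 fold change of 0.03, and a log2 fold change of −0.44 at E16.5. Hsp90b1, another chaperone of that compartment, had 259.6 and 303 CPM in HFD, against 298 and 270.4 CPM in Control at E18.5, a log2 fold change of −0.01, and −0.40 at E16.5. None passed adjustment by edgeR over all genes.

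Yme1l1, a mitochondrial protease, was chosen after its values were seen. It had 23.97 and 9.15 CPM in HFD, against 1.95 and 3.64 CPM in Control at E18.5, but 26.2 and 0 CPM in HFD, against 20.4, 11.2 and 4.34 CPM in Control at E16.5, so its level varied as widely within a diet as between them.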
